A study of Rattus norvegicus with 2 samples.

Results

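Water leaves the kidney tubule through aquaporins, a family of membrane channel proteins, and in the collecting duct this route is switched by the hormone vasopressin. The values described here are the kidney mRNA levels of 10 genes chosen by name, the 9 aquaporin genes Aqp1, Aqp2, Aqp3, Aqp4, Aqp5, Aqp6, Aqp7, Aqp8 and Aqp11 and the vasopressin V2 receptor gene Avpr2. Each matched exactly 1 of the 29516 rows of the deposited gene table. The kidneys came from F344 rats, an inbred strain prone to chronic kidney disease in old age. One group was fed 14% soy and the other a casein control diet. Feeding began in rats aged 16 months from a colony of the US National Institute on Aging and lasted 4 months, so the kidneys of both groups are those of 20-month-old animals. Each diet has 1 library, so no difference below has a replicate check, and no p-value or error of its own is given. The labels do not give the rats' sex, whether rats were pooled or which part of the kidney was taken, and the share of inner medulla, cortex and other parts in each sample is therefore unknown.

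As background, vasopressin binds the V2 receptor on principal cells of the collecting duct, the receptor couples through the stimulatory G protein to adenylyl cyclase, and cyclic AMP activates protein kinase A. The kinase sends vesicles holding aquaporin-2 to the apical membrane and over longer times raises transcription of Aqp2, while aquaporin-3 and aquaporin-4 form the basolateral exit for water in the same cells. Aquaporin-1 is the constitutive water channel of the proximal tubule, the thin descending limb and the descending vasa recta.

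Of the 10 genes, 8 averaged at least 1 FPKM over the libraries (fragments per transcript length and mapped total, the authors' unit, which allows levels to be compared between genes). Of these 8, 7 were higher in the soy kidney and 1, Avpr2, was lower. Among all 14077 genes above the same limit, 52.8% were higher and 47.2% lower with soy. The median log2 difference of the 8 genes, as log2((soy FPKM + 0.1)/(casein FPKM + 0.1)), was 0.42, against 0.01 for all genes, whose quartiles were -0.14 and 0.14. By the ratio of the FPKM values, 1 of the 8 genes, Aqp4, was at least 1.5-fold higher (3.56% of all genes) and 0 were at least 1.5-fold lower (8.36% of all genes). Aqp3, at 1.498-fold, was just under that limit. At a limit of 1.3-fold, chosen after the values had been seen, 5 of the 8 genes were higher, against 7.67% of all genes. Among the 7599 genes averaging at least 10 FPKM, 6.24% passed 1.3-fold.

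**Figure D1:**
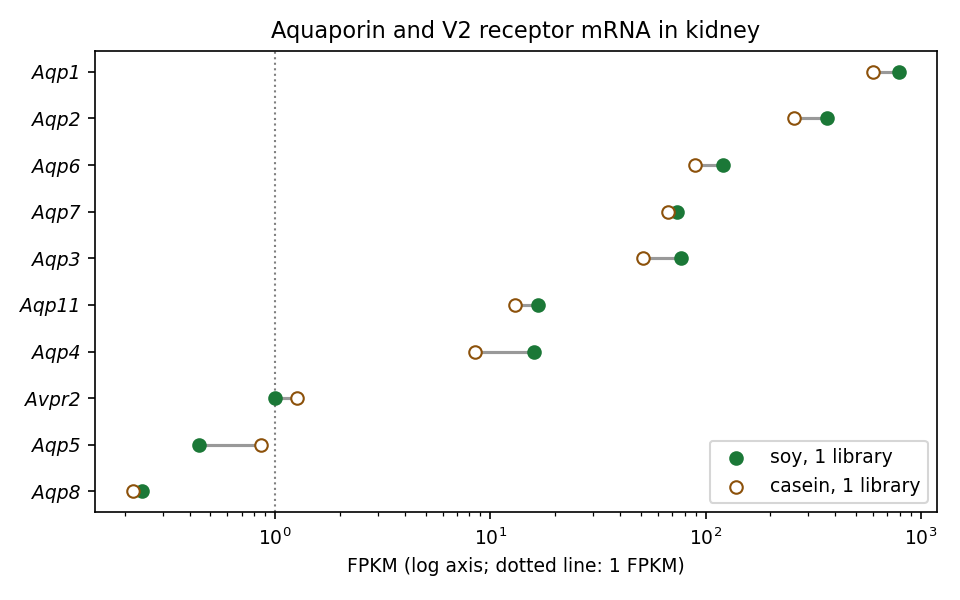
FPKM of the 10 genes on a log axis, 1 point per library, with filled points for soy and open points for casein and genes ordered by their mean. The soy point lies to the right for every gene except Avpr2 and Aqp5, and Aqp1 spans 790.0 and 598 FPKM while Aqp8 stays near 0.2.

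The genes kept nearly the same order of level in both libraries. In the soy kidney it ran Aqp1, Aqp2, Aqp6, Aqp3, Aqp7, Aqp11, Aqp4, Avpr2, Aqp5 and Aqp8, and in the casein kidney only Aqp3 and Aqp7 changed places. Without replicates no spread is known, so it cannot be said which neighbours in that order differ beyond error. The 9 aquaporins summed to 1461 FPKM with soy and 1086 FPKM with casein, 1.345-fold higher, or 0.223% and 0.169% of all FPKM. Aqp1 made up 54.1% of the aquaporin sum with soy and 55.0% with casein, and Aqp2 made up 25.1% and 23.8%.

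The collecting duct principal cell genes come first, from the receptor to the exit channels. Avpr2, the receptor, was listed at 0.997 FPKM with soy and 1.26 FPKM with casein, 1.261-fold lower, with p = 0.951 in the authors' deposited table. Its locus in the files, chromosome X from 159784795 to 160029690, is 244896 bases long and is shared with 9 other rows, among them Arhgap4 and L1cam, so it is not the extent of the receptor gene alone. Of all rows, 5889 (20.0%) share a locus with another row in this way. The labels and file headers name no genome build for these coordinates.

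Aqp2, the vasopressin-regulated apical channel, had 367 FPKM with soy and 259 FPKM with casein, 1.418-fold higher. It ranked 288th of all rows by level in the soy library and 413th in the casein library. Its log2 difference of 0.50 lay above that of 95.3% of genes, and the authors' deposited table gives p = 0.0479 and q = 0.729 and does not mark it. The ratio of Aqp2 to Avpr2 was 368 with soy and 206 with casein, with the receptor near 1 FPKM in each library. Aqp2 lies on chromosome 7 from 138325854 to 138330891.

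Aqp3, a basolateral channel that also passes glycerol, had 76.6 FPKM with soy and 51.2 FPKM with casein (chromosome 5, 58501641 to 58507161). The authors' deposited table lists it with p = 0.0110 and q = 0.335, not marked. Aqp4, the other basolateral channel and also the main water channel of astrocytes, had 15.9 FPKM with soy and 8.52 FPKM with casein, 1.871-fold higher. Its log2 difference of 0.90 was the highest of the 10 genes and lay above that of 98.3% of genes. It is the 1 gene of the 10 that the authors' deposited table marks as different, with p = 0.000347 and q = 0.0439, where the marked genes reach q = 0.0496. That table marks 0.121% of all genes above 1 FPKM as higher and 0.774% as lower. Aqp2, Aqp3 and Aqp4 together had 459.5 FPKM with soy and 318 FPKM with casein. The ratio of Aqp2 to Aqp4 was 23.0 with soy and 30.4 with casein, and that of Aqp2 to Aqp3 4.79 and 5.06.

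**Figure D2:**
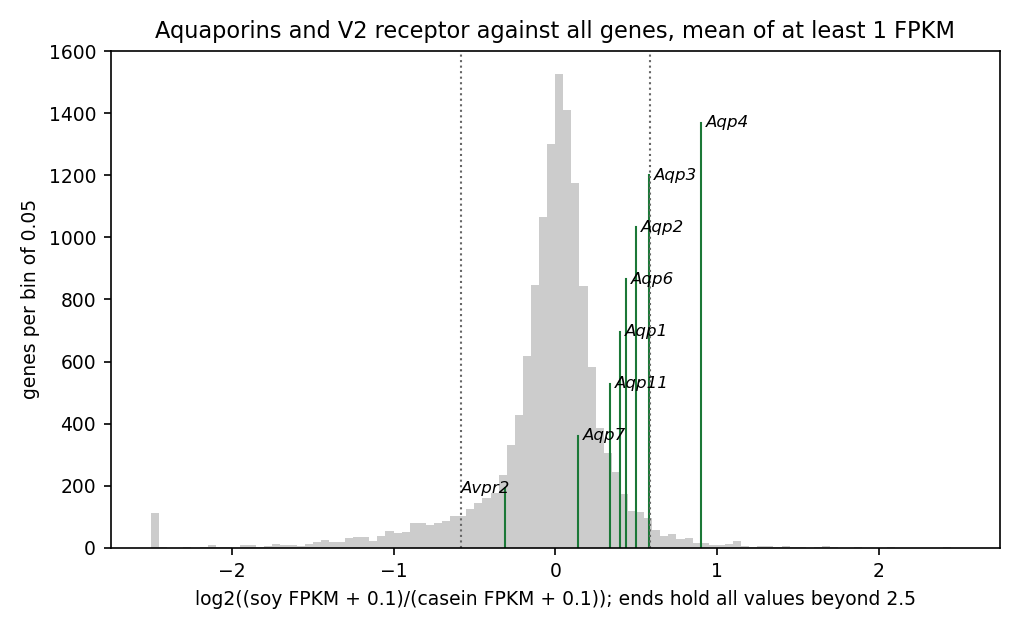
Histogram of the log2 difference, soy over casein, of all 14077 genes averaging at least 1 FPKM, in bins of 0.05, with a vertical line for each of the 8 genes above that limit (the height of a line only separates the labels) and dotted lines at 1.5-fold. All aquaporin lines lie right of 0, from 0.14 for Aqp7 to 0.90 for Aqp4, and Avpr2 lies left at -0.31.

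For Aqp4, 1 transcript is listed apart from the gene value. The transcript ENSRNOT00000068150 of Aqp4, listed in the authors' deposited table of marked transcripts, had 5.14 FPKM with soy and 0.812 FPKM with casein, 6.328-fold higher, with q = 0.0290 in that table. It was 32.2% of the gene's value with soy and 9.53% with casein. The rest of the gene value, obtained by subtraction, was 10.8 FPKM with soy and 7.71 FPKM with casein, 1.402-fold higher, close to the fold of Aqp2. The listed transcript thus held 58.3% of the gene's difference of 7.42 FPKM. It is listed because the authors marked it, so its fold and share are those of a transcript selected for its difference. Subtraction assumes that the gene value is the sum of its transcripts. None of the 145 listed transcripts exceeded its gene in either library (relative tolerance 0.0001). Of them, 110 equalled it and 35 fell below it in at least 1 library. This does not check the sum, because transcripts that were not marked are not listed. How reads were divided between transcripts of 1 gene is an estimate, and its error is unknown here. The Aqp4 locus in the files, chromosome 18 from 6380431 to 6642766, spans 262336 bases and is shared with RL39_RAT, a ribosomal protein L39 row at 339.7 FPKM with soy and 375 FPKM with casein, and with 1 row at 0 in both libraries.

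**Figure D3:**
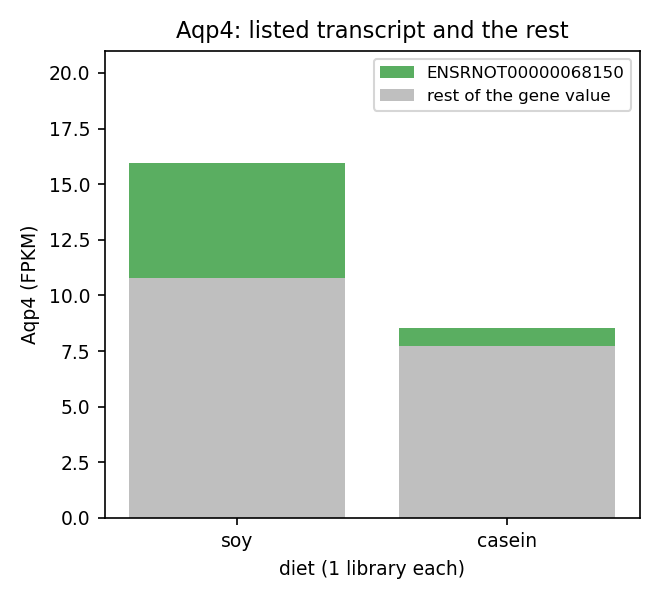
Stacked bars of Aqp4 FPKM in the soy and casein libraries (1 each), split into the listed transcript (green) and the rest of the gene value (grey). The green part is 5.14 FPKM with soy and 0.812 with casein, and the grey part 10.8 and 7.71.

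The 250 bases before the annotated start sites of Aqp2, Aqp3 and Aqp4 are shown because these genes share a cell type and were the 3 highest by log2 difference. RefSeq (build GRCr8, whose coordinates differ from those of the files) lists 2 starts for Aqp4. Capitals mark matches on either strand to the motifs searched. The first was TGACG, the core of the cAMP response element, which is contained in the full element TGACGTCA and was searched with and without the rest of it. The second was TATAAA, the TATA box, which lies before the start of transcription in many regulated genes and helps to place it. The third was AGATAA, a sequence bound by GATA factors such as those of the collecting duct. The fourth was TGGAAA, the core bound by Nfat5, the tonicity factor of the renal medulla. The last was GGGCGG, the GC box common to many promoters of the genome.
Aqp2, chr7:132590036-132590285, plus strand: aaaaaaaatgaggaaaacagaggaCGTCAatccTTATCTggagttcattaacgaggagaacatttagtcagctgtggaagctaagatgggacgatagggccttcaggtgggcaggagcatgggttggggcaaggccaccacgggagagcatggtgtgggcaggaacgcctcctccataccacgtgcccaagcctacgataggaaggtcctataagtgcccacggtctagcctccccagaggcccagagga
Aqp3, chr5:61040684-61040933, minus strand: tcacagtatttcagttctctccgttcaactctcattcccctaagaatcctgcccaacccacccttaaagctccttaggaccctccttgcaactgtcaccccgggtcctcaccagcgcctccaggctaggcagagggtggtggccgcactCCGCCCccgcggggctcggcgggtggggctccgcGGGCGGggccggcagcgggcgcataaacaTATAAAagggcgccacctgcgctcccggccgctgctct
Aqp4 first window, chr18:6798843-6799092, minus strand: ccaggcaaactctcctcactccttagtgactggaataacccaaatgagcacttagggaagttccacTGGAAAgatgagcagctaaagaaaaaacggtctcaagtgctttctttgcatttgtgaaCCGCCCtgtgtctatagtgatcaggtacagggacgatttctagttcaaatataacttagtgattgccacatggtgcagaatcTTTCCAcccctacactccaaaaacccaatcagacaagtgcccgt
Aqp4 second window, chr18:6797927-6798176, minus strand: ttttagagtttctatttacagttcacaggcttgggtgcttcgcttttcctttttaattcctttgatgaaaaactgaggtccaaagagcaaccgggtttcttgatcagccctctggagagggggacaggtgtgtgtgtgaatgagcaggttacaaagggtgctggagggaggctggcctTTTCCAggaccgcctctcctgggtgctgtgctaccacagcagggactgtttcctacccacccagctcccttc

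The Aqp2 window held TGACG on the minus strand at -226 to -222, counted from the start site, and AGATAA on the minus strand at -217 to -212, which 18.2% and 10.3% of 33469 rat promoter windows of the same length hold. The Aqp3 window held TATAAA at -38 to -33 (12.9% of windows) and GGGCGG at 2 places (30.5%). The first Aqp4 window held TGGAAA at -184 and, on the minus strand, at -44, and the second held it at -72 on the minus strand (19.7% of windows). GGGCGG was also in the first Aqp4 window, on the minus strand at -126 to -121. Of the 9 genes with a window, none held the full TGACGTCA, which 1.59% of windows hold. These are matches of letters and do not show binding, and which start produces the listed Aqp4 transcript is not known here.

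Aqp1, the channel of the proximal tubule, thin descending limb and descending vasa recta, had 790.0 FPKM with soy and 598 FPKM with casein. These are levels of the whole kidney sample, not of those parts. Aqp1 was 1.322-fold higher and ranked 101st of all rows with soy and 158th with casein. The authors' deposited table gives it p = 0.382 at chromosome 4 from 84098345 to 84110524, a higher p than that of Aqp11 with a smaller fold. Aqp11, a channel of the endoplasmic reticulum whose loss causes cystic kidneys in mice, had 16.6 FPKM with soy and 13.1 FPKM with casein, 1.269-fold higher (p = 0.289 in the authors' deposited table). Aqp7, the glycerol channel of the late proximal tubule, differed least among the aquaporins above 1 FPKM, with 73.3 FPKM with soy and 66.8 FPKM with casein, 1.099-fold higher. The ratio of Aqp1 to Aqp7 was 10.8 with soy and 8.95 with casein. Aqp7 (chromosome 5, 58433730 to 58447853) and Aqp3 lie 53.8 kb apart with 1 gene between them, and had log2 differences of 0.14 and 0.58.

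Aqp6, a channel of intracellular vesicles in intercalated cells, the acid-base transporting cells of the collecting duct, had 121 FPKM with soy and 89.2 FPKM with casein, 1.353-fold higher (p = 0.0580 in the authors' deposited table). It lies at chromosome 7 from 138347261 to 138350199 in a row with Aqp2 and Aqp5, with gaps of 6.83 and 6.00 kb and no gene between. Aqp5, the channel of salivary gland and lung between them, was at 0.441 FPKM with soy and 0.864 FPKM with casein, 1.958-fold lower but below 1 FPKM in both libraries (p = 0.115 in the authors' deposited table). Aqp8, a channel also found in liver and gut, was at 0.240 FPKM with soy and 0.220 FPKM with casein. Of 4 further family members searched, Aqp9, Aqp12a and Mip were below 0.1 FPKM in both libraries and Aqp10 was not matched.

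Lists of genes around the aquaporins describe the rest of the water pathway. In the signalling list, 12 of 18 genes were matched, so part of the pathway is not covered. Of these, 10 averaged at least 1 FPKM, 5 higher and 5 lower with soy, none by 1.5-fold, with a median log2 of 0.00. Adcy6, the adenylyl cyclase of principal cells, had 37.7 FPKM with soy and 34.3 FPKM with casein, and Prkaca, the catalytic subunit of protein kinase A, 31.5 and 31.3 FPKM. The largest differences in that list were in Pde4b, a phosphodiesterase that breaks down cyclic AMP, at 4.30 FPKM with soy and 6.26 FPKM with casein, and in Arrb1, which encodes beta-arrestin 1, at 18.1 and 13.3 FPKM. The receptor Avpr1a had 1.998 FPKM with soy and 2.08 FPKM with casein, the hormone gene Avp 0.0480 and 0 FPKM, and Gnas was not matched.

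All 23 genes of the list for trafficking and turnover of aquaporin-2 averaged at least 1 FPKM, 14 higher and 9 lower, none by 1.5-fold, with a median log2 of 0.03. Anxa2, which encodes annexin A2, a membrane-binding protein of vesicle fusion, was the farthest from 0, at 108 FPKM with soy and 156.5 FPKM with casein. Next in size were Arhgdib (44.8 FPKM with soy, 63.1 FPKM with casein) and Dynll1 (131 and 178 FPKM), also lower. Myo5b, the motor that moves recycling vesicles, was higher with a smaller difference, at 19.5 FPKM with soy and 16.6 FPKM with casein. Of 9 transcription factor genes, 7 were higher and 2 lower, with a median log2 of 0.15. Elf5, an Ets factor of principal cells, was 3.129-fold higher at 2.68 FPKM with soy and 0.855 FPKM with casein (q = 0.218 in the authors' deposited table), the 1 factor past 1.5-fold. Nfat5 had 14.7 FPKM with soy and 12.8 FPKM with casein, in a row with the status FAIL in the authors' deposited table. The 7 receptors that modulate water transport lay between -0.26 for the prostaglandin receptor Ptger4 and 0.23 for the calcium-sensing receptor Casr.

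Genes listed for urine concentration and for osmolytes were higher with soy, as the aquaporins above 1 FPKM were. Among all genes above that limit, 52.8% were higher. All 5 genes reported from the salt and urea transport list, which includes Umod, for uromodulin, were higher with soy (median log2 0.37). Each was higher by less than 1.5-fold. The cotransporter Slc12a1 of the thick ascending limb led, at 433 FPKM with soy and 304 FPKM with casein. All 6 genes of the osmolyte list above 1 FPKM were higher as well, with log2 differences from 0.07 to 1.32 (median 0.38). Akr1b1, the aldose reductase that makes sorbitol, was 2.497-fold higher and is marked in the authors' deposited table (q = 1.78e-05), and Slc5a3, which takes up inositol, was 1.749-fold higher at 11.0 FPKM with soy and 6.29 FPKM with casein. The urea transporter Slc14a2 was not matched.

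**Figure D4:**
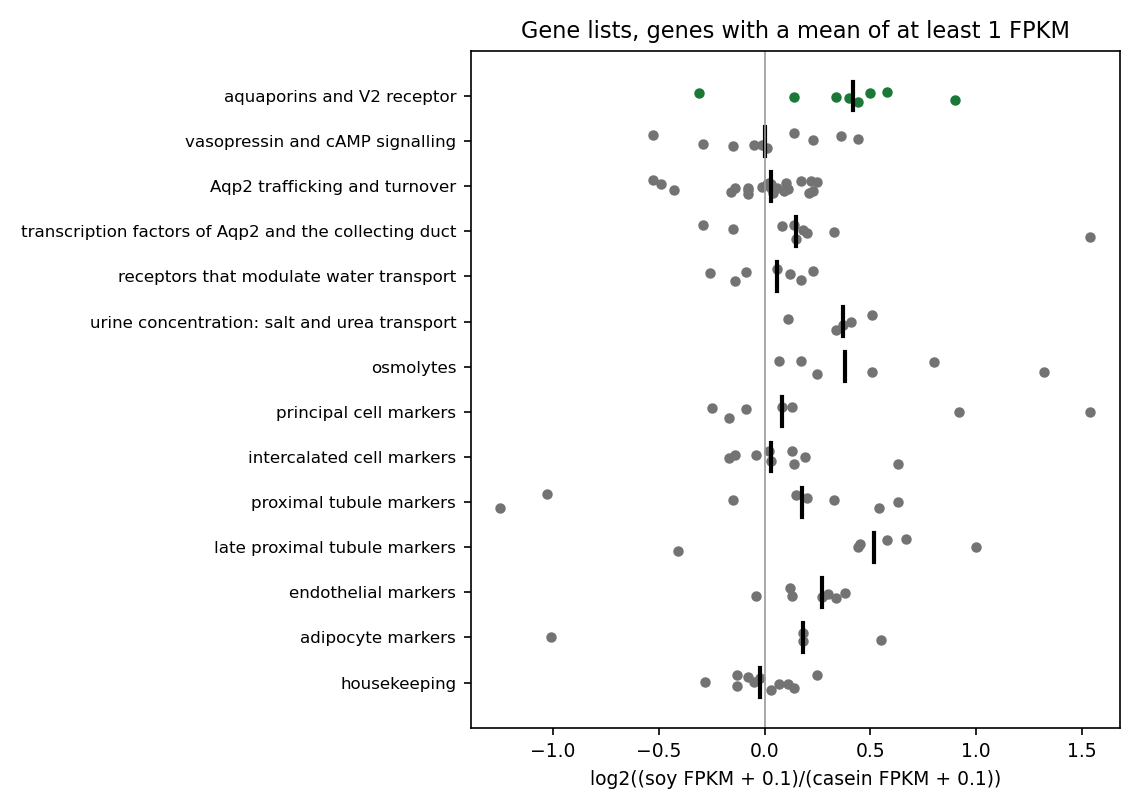
Log2 difference, soy over casein, of each gene averaging at least 1 FPKM in each list (points, spread vertically at random) with the list median (black line). The aquaporins and V2 receptor have a median of 0.42, between the osmolyte list (0.38) and the late proximal tubule markers (0.51). The salt and urea transport list has a median of 0.37, the endothelial markers 0.27, and the intercalated cell and housekeeping lists 0.03 and -0.02.

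The kidney genes Umod (3662 FPKM with soy, 2842 FPKM with casein), for uromodulin, and Slc34a1, a phosphate cotransporter (1044 FPKM with soy, 907 FPKM with casein) were abundant in both libraries. Markers of the cells that carry each channel give the following values, and their part in the aquaporin differences was not tested. In RNA of bulk tissue, fewer cells of a type and less RNA per cell cannot be told apart. Of 7 principal cell markers, 4 were higher and 3 lower with soy, with a median log2 of 0.08. Their summed level was 329 FPKM with soy and 336 FPKM with casein, and without Hsd11b2, the most abundant of them, 121 FPKM with soy and 102 FPKM with casein. The epithelial sodium channel subunits Scnn1a (31.3 and 28.5 FPKM), Scnn1b (20.5 and 24.4 FPKM) and Scnn1g (15.0 and 15.9 FPKM) were within 1.2-fold. So was the glucocorticoid-inactivating enzyme gene Hsd11b2 (208 and 234 FPKM), each pair given as soy and casein. The Scnn1b row has the status FAIL in the authors' deposited table. Elf5 and the sodium pump regulator Fxyd4 (40.8 FPKM with soy, 21.5 FPKM with casein) were past 1.5-fold. Of the 7, Fxyd4 is marked in the authors' deposited table (q = 0.0296). The folds of Aqp2, Aqp3 and Aqp4 were above those of 5 of the 7 markers and below those of Elf5 and Fxyd4.

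Of 9 intercalated cell markers, 6 were higher and 3 lower, with a median log2 of 0.03, and the bicarbonate exchanger gene Slc4a1, also a red blood cell gene, was the 1 past 1.5-fold at 74.5 FPKM with soy and 48.2 FPKM with casein. The fold of Aqp6 was above those of 8 of the 9 markers and below that of Slc4a1. Of 8 proximal tubule markers, 5 were higher and 3 lower (median log2 0.18). The glucose and lactate cotransporter genes of the early segment, Slc5a2 (10.7 FPKM with soy, 21.8 FPKM with casein) and Slc5a12 (6.85 and 16.4 FPKM), were past 1.5-fold lower. Slc5a12 is marked in the authors' deposited table (q = 0.000442). Lrp2, which encodes the protein reabsorption receptor megalin, was past 1.5-fold higher (24.7 FPKM with soy, 15.9 FPKM with casein), and Cubn, its partner receptor, was 1.455-fold higher (13.7 and 9.42 FPKM). The fold of Aqp1 was above those of 6 of the 8 markers and below those of Lrp2 and Cubn. Of 6 late proximal tubule markers, 5 were higher (median log2 0.51), and the sum of the 6 was 1.563-fold higher. Most of that sum, 2802 FPKM with soy and 1792 FPKM with casein, was Slc7a13 (2246 and 1412 FPKM), which the authors' deposited table does not mark. Slc22a13 among them was 2.005-fold higher and is marked in the authors' deposited table (q = 0.00468). Aqp7 of the same tubule part was 1.099-fold higher. The fold of Aqp1, 1.322, was below those of all 5 higher late markers, which ran from 1.361 to 2.005. It was above that of the 1 lower marker.

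Aqp1 is also made by endothelium and red blood cells. Of 7 endothelial markers 6 were higher with soy (median log2 0.27), with sums of 229 FPKM with soy and 189 FPKM with casein, whereas the haemoglobin genes Hbb (496.5 FPKM with soy, 753 FPKM with casein) and Hba-a2 (569 and 880.5 FPKM) were lower. The alpha and the beta haemoglobin genes each have near-identical copies of their own kind, so their single values are uncertain. For Aqp7, also a fat cell gene, 3 of 4 adipocyte markers were higher with soy. Cfd, with the largest difference of the 4, was lower (2.22 FPKM with soy, 4.59 FPKM with casein). Fabp4 was 1.467-fold higher (42.3 FPKM with soy, 28.9 FPKM with casein), while Adipoq had 9.41 FPKM with soy and 8.29 FPKM with casein. For Aqp4, the astrocyte gene Gfap (0.0912 and 0.159 FPKM) and the muscle gene Ckm (0.0590 and 0.0220 FPKM) were near 0 in the soy and casein libraries. The 4 matched of 5 muscle and astrocyte markers summed to 0.945 FPKM with soy and 2.33 FPKM with casein, most of it the troponin gene Tnnt3.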

How the data were processed

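Kidney RNA was made into TruSeq libraries, per the labels' protocols, and Bowtie, TopHat and Cufflinks (no versions) are listed in the submitters' processing notes. The authors deposited FPKM values per gene and per marked transcript, 1 column per diet, with their own log2 fold, p-value, q-value and mark for each row, per the file headers. Infinite log2 folds are written there as a very large number. The sources used here do not give the genome build, the annotation release or the number of libraries in the authors' test. Because FPKM are not counts, depth is unknown, and no counting interval or floor was given. FPKM summed to 656248 with soy and 643145 with casein.

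The 10 genes were matched by symbol, and 128 of 148 entries of 16 further lists were matched directly or through RefSeq synonyms. The genes and lists were chosen with earlier results of these data known. The difference was log2 of the FPKM ratio with a pseudocount of 0.1, which understates low genes. Folds, and the counts past 1.5-fold, are ratios of the FPKM values. List counts and medians use genes with a mean of 1 FPKM or more. With 1 library per diet no test was run. Named genes are all 10, up to 4 per further list with the largest difference, and direct partners. Genes printed beyond that rule (Prkaca, Avp, Avpr1a, Myo5b, Scnn1a, Scnn1g, Slc34a1, Gfap and Ckm) were chosen after their values were seen. Promoter windows are RefSeq's, build GRCr8, cut to 250 bases before the start. A gene of these lists is not reported here. The counting steps were tested on simulated data with planted changes well past 1.5-fold, which does not test counting near that limit. Software was pandas 2.3.3, numpy 2.4.6 and matplotlib 3.10.9 under Python 3.11.15.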

Additional observations from a re-analysis of the deposited data

How the results depend on the processing

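With 1 library per diet, no replicate could be left out. No paired analysis was possible because each diet has 1 library. The alternatives were pseudocounts of 0.01 and 1, centring on the median of all genes or of the housekeeping list, equal FPKM sums, other limits on the mean, status OK only, other fold and q limits and, for principal cell genes, centring on their markers. No direction changed, but a pseudocount cannot change a direction. All 10 genes had status OK in the authors' deposited table, so that limit removed none. Centring subtracted 0.013 (all genes), -0.017 (housekeeping list) or 0.082 (principal cell markers), each smaller in size than every difference it was applied to. The factor to equal sums was 0.9800. These alternatives therefore tested the directions little. The median log2 of the genes kept its sign and its side of 1.5-fold under the pseudocounts, equal sums and status OK only. It also did so under centring on all genes or housekeeping genes, the limits on the mean and the mean in place of the median. The count of genes at least 1.5-fold higher, 1 as reported, was 2 when centred on the housekeeping list, which brought in Aqp3 (0.60), 0 at a 2-fold limit and 5 at 1.3-fold, a limit added after the data were seen. The count at least 1.5-fold lower, 0 as reported, was 1 with no limit on the mean, which brought in Aqp5, and Aqp5 itself came to -0.37 with a pseudocount of 1. The authors' mark, on 1 gene, was on 0 genes at a q limit of 0.01. Aqp4 without its listed transcript, also added after seeing the data, had a log2 difference of 0.48, below 1.5-fold. The unknown depth limits what the values of Aqp5, Aqp8 and Avpr2 can show.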
